A study of Mus musculus with 6 samples.

Results

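The genes described here encode the subunits of the mitochondrial respiratory chain that are transcribed in the nucleus. They were chosen by symbol, as every annotated gene whose name begins with Ndufa, Ndufb, Ndufc, Ndufs or Ndufv, with Uqcr, with Cox4 to Cox8 or with Atp5, together with Sdha to Sdhd, leaving out the Ndufaf assembly factors and names holding -ps. The rule found 85 of 47643 genes. Sorted by name alone, 38 were counted with complex I, 4 with complex II, 8 with complex III, 18 with complex IV and 17 with complex V. Of the 85 genes 77 had enough reads to be tested. RNA had been sequenced from regulatory T cells, sorted from mouse bone marrow as CD4+ cells carrying GFP from the FOXP3 gene. The marrow was that of mice injected with Vk*MYC cells, which model multiple myeloma, a cancer of plasma cells (3 libraries with replicate numbers 3, 4 and 5, called MM3, MM4 and MM5 after their labels), and of control mice (3 libraries numbered 1, 3 and 5, called CT1, CT3 and CT5). All 6 libraries carry the FOXP3-GFP reporter, and the labels used here give no age, strain or time after injection. The comparison asks how the transcriptome of marrow regulatory T cells differs between myeloma-bearing and control mice, and it is described below for each complex, with transcript length considered beside it.

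The respiratory chain sits in the inner mitochondrial membrane. Complex I (NADH dehydrogenase) and complex II (succinate dehydrogenase) feed electrons to ubiquinone, complex III passes them to cytochrome c, and complex IV (cytochrome c oxidase) reduces oxygen. Complexes I, III and IV pump protons, and complex V (ATP synthase) uses the gradient to make ATP. A few hydrophobic subunits are encoded by mitochondrial DNA, none of them in complex II, and all the others are nuclear. Regulatory T cells are known to depend on oxidative metabolism more than effector T cells do.

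In the regulatory T cells of mice with myeloma, 38 of the 77 tested subunit genes rose and none fell by edgeR's quasi-likelihood test at an adjusted p under 0.05. Over all 13235 genes tested 6.33% were called higher and 4.69% lower. The smallest p-values were those of Cox5a and Cox5b of complex IV, then of Ndufb8 and Ndufa11, accessory subunits of the complex I membrane arm. Cox6b1 of complex IV and Atp5j2 and Atp5e of complex V came next. Of the 11 catalytic, redox or complex I core subunits described here 2 rose, Sdhb and Ndufs3. The other 9 were not called, among them Sdha, Ndufs1, Ndufv1, Atp5a1 and Atp5b. In these libraries short transcripts in general tended to higher levels in myeloma (median log2 fold change 0.32 over all 563 tested genes under 600 bases). After a correction for transcript length (the length offset, which subtracts a curve of level against length in each library) 2 of the 77 subunits were called higher (2.60%). Over all genes tested 3.24% were then called higher and 2.0% lower. The 2 subunits were Cox5a and Ndufa11, of which Ndufa11 rests on a doubtful length. In each setting tried 0 subunits passed as lower. In the main edgeR fit 0 had a negative fold change at an unadjusted p under 0.05. With the length offset Ndufs1 (log2 fold change -0.24, unadjusted p = 0.0158, adjusted p = 0.130) and Cox7a2l (-0.30, 0.0157 and 0.130) had one. DESeq2 called 41 subunits higher and 0 lower, against 8.21% and 7.33% of all genes, and limma-voom 31 and 0, against 5.98% and 4.43%.

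The promoters of subunits that were called higher are shown to give the sequence context of the genes. In each complex the member with the smallest p was taken among those that held, from 150 bases before to 30 bases after the annotated start, a match to the core motif of NRF1 (GCATGCGC), of ETS factors such as GABPA (CCGGAAG) or of YY1 (AAGATGGCG), transcription factors with a known part in the transcription of respiratory genes. Sequences are from RefSeq on GRCm38.p6, run 5′ to 3′ on the gene's strand over that stretch, and have motif matches on either strand in capitals. They belong to the complex I accessory subunit Ndufa11 (chr17:56717612-56717791, plus strand), the iron-sulphur subunit Sdhb of complex II (chr4:140961121-140961300, plus strand), the complex III subunit Uqcr11 (chr10:80406792-80406971, minus strand), the complex IV subunit Cox6b1 (chr7:30626085-30626264, minus strand) and Atp5e, the epsilon subunit of ATP synthase (chr2:174464072-174464251, minus strand).
Ndufa11 promoter: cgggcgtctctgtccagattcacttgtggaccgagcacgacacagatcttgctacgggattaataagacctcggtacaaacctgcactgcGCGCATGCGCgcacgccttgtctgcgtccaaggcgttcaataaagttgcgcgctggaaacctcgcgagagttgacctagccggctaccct
Sdhb promoter: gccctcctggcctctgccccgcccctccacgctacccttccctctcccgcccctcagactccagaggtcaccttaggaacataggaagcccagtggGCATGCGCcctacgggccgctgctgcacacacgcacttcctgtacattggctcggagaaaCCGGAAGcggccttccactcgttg
Uqcr11 promoter: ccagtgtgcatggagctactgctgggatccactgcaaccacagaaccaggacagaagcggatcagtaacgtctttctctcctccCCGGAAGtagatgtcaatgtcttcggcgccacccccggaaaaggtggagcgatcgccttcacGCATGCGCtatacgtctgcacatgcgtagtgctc
Cox6b1 promoter: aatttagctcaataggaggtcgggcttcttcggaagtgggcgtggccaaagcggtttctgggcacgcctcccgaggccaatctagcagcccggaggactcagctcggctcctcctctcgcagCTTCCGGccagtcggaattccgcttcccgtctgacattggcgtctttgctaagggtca
Atp5e promoter: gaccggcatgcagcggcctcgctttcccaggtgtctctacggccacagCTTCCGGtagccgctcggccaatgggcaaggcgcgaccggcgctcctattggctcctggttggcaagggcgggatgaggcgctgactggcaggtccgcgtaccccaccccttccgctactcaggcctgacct
The Ndufa11 capitals mark overlapping NRF1 matches on both strands. The Sdhb and Uqcr11 windows each hold 1 NRF1 and 1 ETS match, and those of Cox6b1 and Atp5e hold 1 ETS match on the opposite strand.

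RefSeq promoters of 250 bases before to 50 bases after the start were at hand for 66 of the 77 tested subunits. The NRF1 core was found on either strand in 10 of the 66 (15.2%), against 5.63% of the 9668 promoters of all tested genes and 2.80% of all 27025 promoters. The ETS core was found in 15 (22.7%), against 19.4% of tested genes and 9.12% of all promoters, and the YY1 core in 7 (10.6%), against 3.41% and 1.49%. Within the subunits the motifs did not mark large differences between groups. The median log2 fold change was 0.48 with and 0.40 without the NRF1 core, 0.49 and 0.39 for the ETS core, and 0.47 and 0.40 for the YY1 core. A match describes the letters in the window and does not show binding.

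The subunits took 0.642%, 0.658% and 0.579% of all expected counts in MM3, MM4 and MM5, against 0.539%, 0.529% and 0.534% in CT1, CT3 and CT5. The groups did not overlap. In bulk RNA a change in the number of cells of a type and a change in RNA per cell cannot be told apart. For 56 of the 77 tested subunits all 3 myeloma values lay above all 3 control values, which was so for 17.3% of all genes tested. For 1 subunit, Ndufs1, all 3 lay below (16.0% of all genes tested). The log2 fold change was positive for 72 of the 77, and for 6876 of all 13235 genes tested. Its median was 0.40 over the subunits and 0.02 over all genes tested. The 5 subunits with a negative value were Ndufs1, Sdha, Cox7a2l, Atp5a1 and Atp5s.

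**Figure D1:**
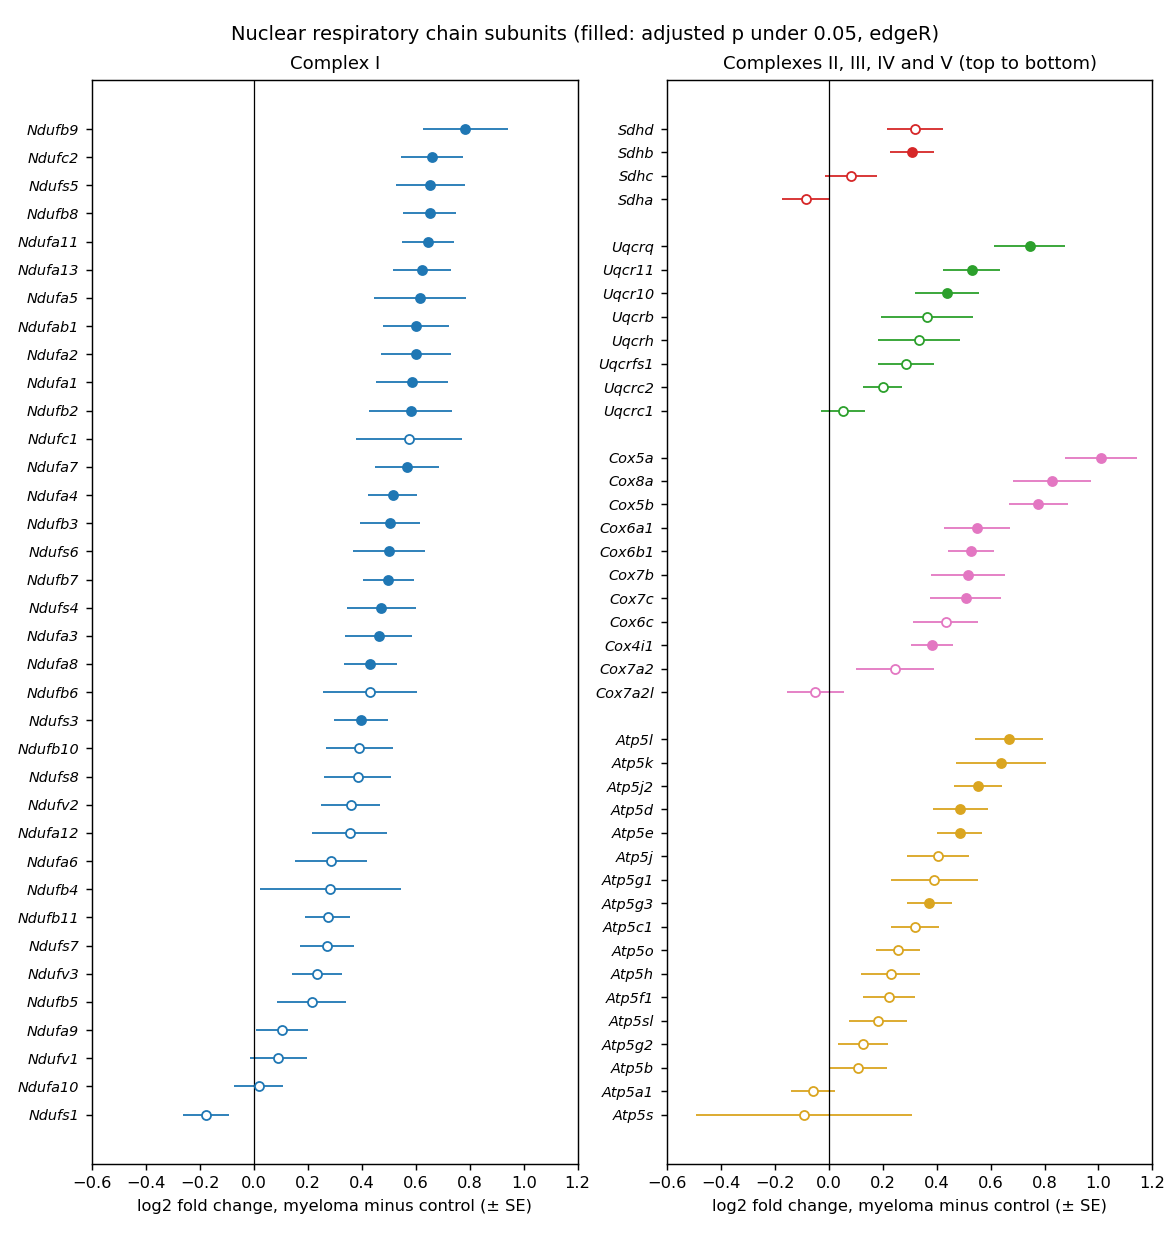
Log2 fold change (myeloma minus control) with its standard error for 76 of the 77 tested subunits, complex I on the left and complexes II to V on the right, with filled circles for subunits called at an adjusted p under 0.05 by edgeR. Filled circles number 20 in complex I, 1 in complex II, 3 in complex III, 8 in complex IV and 6 in complex V, and all of them lie right of 0.

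Complex IV had the largest share of called subunits, 8 of 11 tested, with a median log2 fold change of 0.52. Complex I followed with 20 of 37 and a median of 0.46, complex III with 3 of 8 and 0.35, complex V with 6 of 17 and 0.32, and complex II with 1 of 4 and 0.20. The spread of a complex's median between libraries of 1 group, pooled over the groups, was 0.10 for complexes I and III, 0.05 for complex II and 0.08 for complexes IV and V (SD, log2 scale). Complexes IV and I, and III and V, therefore lay closer to each other than this spread, and the order of the complexes was not tested.

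Complex IV is built on mitochondrial subunits that hold the catalytic centres, and its nuclear subunits surround them. Cox5a and Cox5b are peripheral subunits on the matrix side. Cox5a (chromosome 9 of GRCm38, 57521274 to 57532426) stood at 56.2, 76.4 and 62.6 CPM (counts scaled to library size) in MM3, MM4 and MM5, against 30.4, 30.4 and 35.9 CPM in CT1, CT3 and CT5. The groups lay far apart, and the log2 fold change of 1.01 (SE 0.13, adjusted p = 0.00304, edgeR) was the largest of any subunit. Cox5b (chromosome 1, 36691449 to 36693681) stood at 86.3, 93.4 and 88.9 CPM in myeloma and at 45.8, 50.8 and 60.0 CPM in control (log2 fold change 0.78, SE 0.11, adjusted p = 0.00412). Its groups did not overlap either.

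Cox8a, the general form of a small transmembrane subunit, stood at 142, 122 and 119 CPM in myeloma and at 64.5, 62.3 and 89.1 CPM in control (log2 fold change 0.83, SE 0.14, adjusted p = 0.00964). Cox6b1, a subunit on the intermembrane side, stood at 106, 97.5 and 107 CPM in myeloma and at 73.7, 74.5 and 67.3 CPM in control (0.53, SE 0.08, adjusted p = 0.00708). For both genes every myeloma library exceeded every control library. Cox4i1, the ubiquitous form of the subunit that carries allosteric control by ATP, also rose, with 221, 237 and 219 CPM in myeloma and 177, 176 and 167 CPM in control (0.38, SE 0.08, adjusted p = 0.0175). Cox6a1, the general form of subunit 6A, stood at 127, 121 and 113 CPM in myeloma and at 68.1, 83.1 and 95.4 CPM in control (0.55, SE 0.12, adjusted p = 0.0234). Cox5a, Cox5b, Cox8a and Cox6b1 kept their calls whichever library was left out. Cox4i1 lost its call without MM3 (adjusted p = 0.0583), MM4 (0.0704), CT3 (0.0727) or CT5 (0.0662), and Cox6a1 without MM3 (0.0818), MM4 (0.0813) or CT3 (0.0877).

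The product of Cox7a2l joins complexes III and IV into supercomplexes rather than serving as a standard subunit. Its transcript stood at 259, 304 and 237 CPM in myeloma and at 279, 289 and 260 CPM in control (log2 fold change -0.05, SE 0.10, adjusted p = 0.808). These groups overlapped, and the sign turned without MM5 (0.02). Its relative Cox7a2, the general form of subunit 7A, was not called (log2 fold change 0.25, SE 0.14, adjusted p = 0.309). Isoforms known from muscle, lung or testis had few or no counts. Cox7b2 and Cox8c had 0 counts in all 6 libraries, and 3 counts would correspond to 0.218 to 0.298 CPM. Cox4i2, the form induced by low oxygen in lung, had 0 counts in all 3 myeloma libraries, and 0, 1 and 0 in CT1, CT3 and CT5. The muscle form Cox6a2 had 9, 0 and 5 counts in myeloma and 2, 14 and 1 in control, Cox6b2 had 6, 6 and 20 in myeloma and 4, 17 and 7 in control, and Cox7a1 had 0, 3 and 1 in myeloma and 4, 2 and 1 in control. The counts of Cox8b were 0 in all myeloma libraries and 0, 11 and 0 in control. These 7 genes and Ndufa4l2 of the complex I names, with 0 counts throughout, were the 8 subunits not tested.

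**Figure D2:**
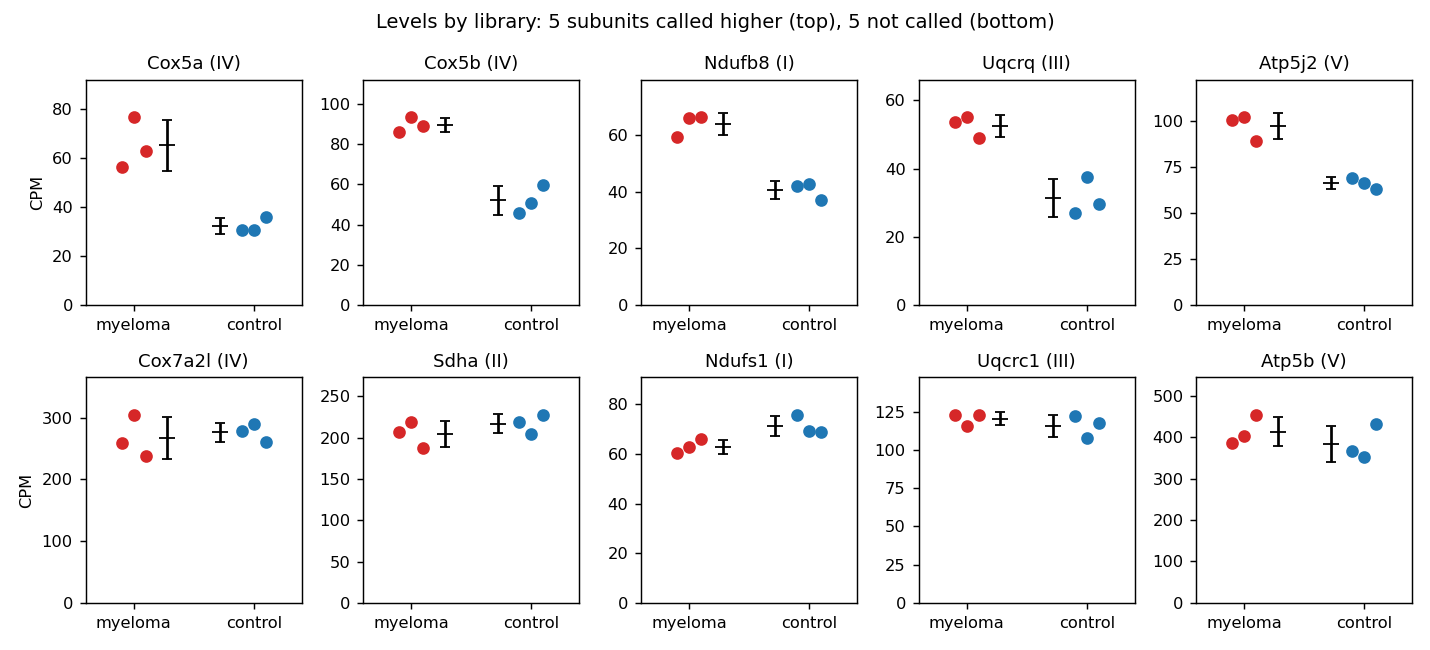
CPM in each library for 5 subunits called higher (top row) and 5 not called (bottom row), with the complex in parentheses, myeloma at the left of each panel and control at the right, and bars for the mean and SD of 3 libraries. In the top row the groups do not overlap, for example 56.2 to 76.4 CPM in myeloma and 30.4 to 35.9 CPM in control for Cox5a, while in the bottom row Cox7a2l, Sdha, Uqcrc1 and Atp5b overlap and Ndufs1 is separated slightly downwards.

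Complex I is L-shaped, with an arm in the matrix that oxidises NADH (the N module) and hands electrons to ubiquinone (the Q module), and a membrane arm that pumps protons. Nuclear subunits of the membrane arm are accessory, since its core is encoded by mitochondrial DNA. Of 20 membrane-arm genes tested 13 rose, with a median log2 fold change of 0.54. In the N module 4 of 10 rose, with a median of 0.36, and in the Q module 2 of 6, with a median of 0.33. The medians vary between libraries of 1 group by an SD of 0.10 for the membrane arm, 0.11 for the N module and 0.07 for the Q module.

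Ndufb8 (chromosome 19, 44548572 to 44555440), an accessory membrane-arm subunit, stood at 59.2, 65.8 and 66.2 CPM in MM3, MM4 and MM5, against 42.1, 42.6 and 37.0 CPM in CT1, CT3 and CT5. Its groups were well separated (log2 fold change 0.65, SE 0.10, adjusted p = 0.00557). Ndufa11 (chromosome 17, 56717767 to 56722141), a membrane-arm subunit near the supercomplex interface, stood at 40.0, 42.0 and 39.0 CPM in myeloma and at 25.6, 26.1 and 25.6 CPM in control (0.65, SE 0.10, adjusted p = 0.00563). Libraries of 1 group lay within a few CPM of each other for this gene. Ndufa13, also known as GRIM-19, stood at 106, 104 and 90.5 CPM in myeloma and at 71.1, 66.7 and 57.4 CPM in control (0.62, SE 0.11, adjusted p = 0.00921). Ndufc2, another membrane-arm subunit, stood at 40.8, 44.5 and 48.0 CPM in myeloma and at 27.8, 31.0 and 25.6 CPM in control (0.66, SE 0.11, adjusted p = 0.00969). Neither overlapped between groups, and the calls of these 4 genes and of Ndufa4 held whichever library was left out. The largest fold change among complex I names was that of Ndufb9, an LYR-motif accessory subunit, at 64.2, 65.1 and 49.8 CPM in myeloma and 28.9, 42.1 and 33.2 CPM in control (0.78, SE 0.16, adjusted p = 0.0171). It lost its call without MM3 (adjusted p = 0.0637), MM4 (0.0732) or CT5 (0.0682).

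Ndufa4 carries a complex I name, but its product is known to belong to complex IV. It stood at 82.2, 75.6 and 72.2 CPM in myeloma and at 55.4, 55.9 and 49.8 CPM in control (log2 fold change 0.51, SE 0.09, adjusted p = 0.0106). Counting it with complex IV gave medians of 0.45 for complex I and 0.52 for complex IV. The transcript of Ndufa3, a membrane-arm subunit, was the most abundant complex I transcript per unit length, at 297 ± 37.1 TPM in myeloma and 244 ± 25.0 TPM in control (SD, n = 3 each). It was called (log2 fold change 0.46 in CPM, SE 0.12, adjusted p = 0.0450) and lost the call in 5 of the 6 fits that left out 1 library: without MM3 (0.128), MM4 (0.145), CT1 (0.0692), CT3 (0.159) or CT5 (0.141). It also lost the call with library sizes alone (0.0907) and with limma-voom (0.0538).

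Most nuclear core subunits of complex I bind the flavin, the iron-sulphur clusters or the ubiquinone site. Of 6 core genes described here 1 was called, Ndufs3 of the Q module, at 69.7, 65.7 and 57.4 CPM in myeloma and 49.3, 46.8 and 50.2 CPM in control (log2 fold change 0.40, SE 0.10, adjusted p = 0.0352). Its call held only without MM5 among the fits that left out 1 library, with 0.118 without MM3, 0.105 without MM4, 0.0787 without CT1, 0.139 without CT3 and 0.0926 without CT5, and it was lost with library sizes alone (0.0847). Ndufs1 (chromosome 1, 63143596 to 63176833), the largest subunit of the complex, which carries several of its iron-sulphur clusters, stood at 60.3, 62.7 and 65.9 CPM in myeloma and at 75.7, 69.1 and 69.0 CPM in control. All 3 myeloma values were lower, but the difference did not pass (log2 fold change -0.18, SE 0.08, adjusted p = 0.209). The others were not called either. Log2 fold changes were 0.09 for Ndufv1, which holds the NADH site (adjusted p = 0.626), 0.36 for Ndufv2 (0.0670, and 0.0229 without MM5), 0.27 for Ndufs7 (0.117) and 0.38 for Ndufs8 (0.0808). The median of these 6 core genes was 0.32, with a median transcript of 973.9 bases, against 0.50 and 649.6 bases for the 30 other complex I names, of which 19 were called.

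Complex II, which also serves the citric acid cycle, had 1 of its 4 genes called. Sdhb, the iron-sulphur subunit whose promoter is shown above (chromosome 4, 140961203 to 140979193), stood at 84.6, 77.5 and 87.0 CPM in MM3, MM4 and MM5 and at 65.9, 67.6 and 67.4 CPM in CT1, CT3 and CT5. The groups did not overlap (log2 fold change 0.31, SE 0.08, adjusted p = 0.0433). The call was lost without MM3 (adjusted p = 0.122), MM4 (0.0620), MM5 (0.0882), CT1 (0.109), CT3 (0.141) or CT5 (0.117), with library sizes alone (0.0982) and with no low-count filter (0.0858). Sdha, the flavoprotein with the succinate site, stood at 207, 219 and 188 CPM in myeloma and at 219, 205 and 227 CPM in control, and the groups overlapped (-0.08, SE 0.09, adjusted p = 0.580). The membrane anchors Sdhc (log2 fold change 0.08, SE 0.10, and -0.15 with the length offset, adjusted p = 0.627 without it) and Sdhd (0.32, SE 0.10, adjusted p = 0.0808) were not called.

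In complex III the 3 called genes were all small subunits without a redox centre. Uqcrq (chromosome 11, 53427922 to 53430831), a small subunit beside cytochrome b, stood at 53.8, 55.0 and 48.9 CPM in myeloma and at 27.1, 37.6 and 29.5 CPM in control (log2 fold change 0.74, SE 0.13, adjusted p = 0.0106). Uqcr11 stood at 38.0, 36.4 and 36.0 CPM in myeloma and at 27.7, 24.9 and 23.9 CPM in control (0.53, SE 0.11, adjusted p = 0.0175). Uqcr10 stood at 36.3, 44.0 and 36.3 CPM in myeloma and at 29.9, 29.6 and 26.4 CPM in control (0.44, SE 0.12, adjusted p = 0.0464). No control library reached a myeloma library for any of the 3. Uqcrq lost its call without MM4 (adjusted p = 0.0519), and Uqcr11 without MM3 (0.0669), MM4 (0.0588), CT3 (0.0778) or CT5 (0.0656). Uqcr10 lost it without MM3 (0.0844), MM4 (0.143), MM5 (0.0504), CT1 (0.0765), CT3 (0.126) or CT5 (0.150), with library sizes alone (0.0848) and with limma-voom (0.0546).

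The remaining complex III genes were not called. Uqcrc1, a large core subunit of the matrix side, stood at 123, 116 and 123 CPM in myeloma and at 122, 108 and 118 CPM in control, with overlapping groups (log2 fold change 0.05, SE 0.08, adjusted p = 0.718). Uqcrfs1, the Rieske iron-sulphur protein, had 66.5, 65.6 and 61.3 CPM in myeloma and 49.4, 59.9 and 49.4 CPM in control (log2 fold change 0.29, SE 0.10, adjusted p = 0.107). Uqcrh, the hinge protein at the cytochrome c site, was the most abundant transcript of the complex per unit length, at 477 ± 110 TPM in myeloma and 444 ± 51.1 TPM in control (SD, n = 3 each). Its log2 fold change was 0.33 (SE 0.15, adjusted p = 0.189), and it passed without MM5 (0.0350) and with no low-count filter (0.0344).

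The 6 called genes of ATP synthase, Atp5j2, Atp5e, Atp5l, Atp5d, Atp5g3 and Atp5k, encode small subunits of its central stalk or membrane part. Atp5j2, a small membrane subunit (chromosome 5, 145183698 to 145192062), stood at 101, 102 and 89.3 CPM in MM3, MM4 and MM5 and at 69.4, 66.5 and 63.0 CPM in CT1, CT3 and CT5 (log2 fold change 0.55, SE 0.09, adjusted p = 0.00708). Atp5e, the epsilon subunit of the central stalk, stood at 114, 119 and 104 CPM in myeloma and at 79.6, 82.1 and 78.5 CPM in control (0.49, SE 0.08, adjusted p = 0.00917). Atp5l, a membrane subunit of the dimer interface, stood at 89.8, 97.0 and 88.5 CPM in myeloma and at 54.1, 69.7 and 49.7 CPM in control (0.67, SE 0.13, adjusted p = 0.0132). None of these overlapped between groups. The call of Atp5l was lost without MM4 (0.0605). Atp5d, the delta subunit of the central stalk, was called at 0.49 (SE 0.10, adjusted p = 0.0191) and lost the call without MM3 (0.0720), MM4 (0.0740), CT1 (0.0553) or CT3 (0.0879).

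Atp5b, the catalytic beta subunit, stood at 385, 402 and 453 CPM in myeloma and at 366, 351 and 432 CPM in control (log2 fold change 0.11, SE 0.11, adjusted p = 0.553). Atp5a1, the alpha subunit, stood at 408, 434 and 450 CPM in myeloma and at 444, 438 and 463 CPM in control (-0.06, SE 0.08, adjusted p = 0.690). Both overlapped between groups. Subunit c, which forms the rotating ring, is encoded by a family of genes for the same mature protein. Of these Atp5g3 was called at 0.37 (SE 0.08, adjusted p = 0.0241), while Atp5g1 at 0.39 (SE 0.16, adjusted p = 0.149) and Atp5g2 at 0.13 (SE 0.09, adjusted p = 0.403) were not, and no difference among them was tested. Atp5g3 lost its call without MM3 (0.0733), MM4 (0.0832), CT3 (0.0849) or CT5 (0.0842), and with library sizes alone (0.0556). The name rule also takes in Atp5s, a coupling factor that is not a core subunit. Atp5s stood at 4.74, 2.28 and 3.30 CPM in myeloma and 3.82, 4.38 and 2.83 CPM in control (-0.09, SE 0.40, adjusted p = 0.911). It is too thinly covered to show a difference of this size. Atp5sl, whose place in complex V here rests on its name alone, was not called (log2 fold change 0.18).

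Short subunit transcripts had the higher fold changes. The median tested subunit was 729 bases long, against 2349 bases over all genes tested, using the length column of the deposited tables. Among the 77 subunits log2 fold change and log2 length had Pearson's r = -0.62 and Spearman's rho = -0.63, and over all 13235 genes r = -0.23 and rho = -0.35, where the points share the same 6 libraries and are not independent. A smooth curve of log2 fold change on log2 length, fitted over all genes tested, stood at a median of 0.33 at the lengths of the subunits. Their own log2 fold changes exceeded it by a median of 0.09, against -0.04 over all genes tested. Above the curve lay 54 of the 77 subunits, and 5811 of all 13235 genes.

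**Figure D3:**
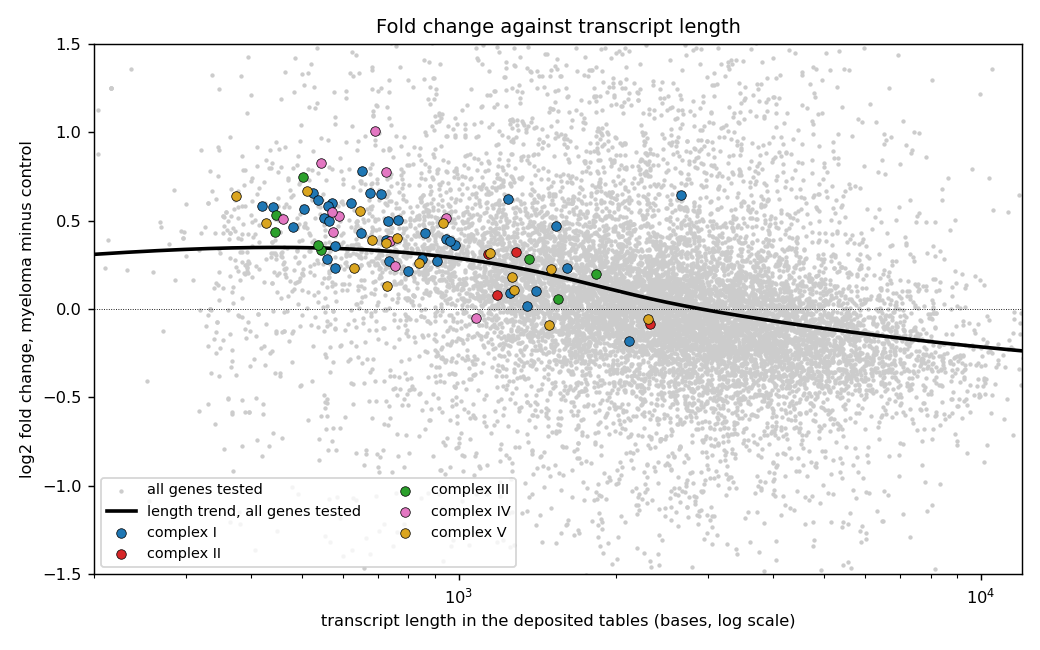
Log2 fold change (myeloma minus control) against transcript length on a log axis, with all genes tested in grey, subunits coloured by complex and the smooth curve over all genes in black; genes beyond 1.5 in either direction, or outside the plotted lengths, are not shown. Short genes lie above 0 as a body, the curve is at a median of 0.33 at the lengths of the subunits, and the subunits lie around and above it.

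Among subunits the share called fell with length up to 2000 bases, and over all genes it was lower in the classes over 1000 bases than in those under. Under 600 bases 19 of 26 subunits rose, against 69 of all 563 genes (12.3%), and from 600 to 1000 bases 15 of 29, against 168 of 1092 (15.4%). From 1000 to 2000 bases 3 of 18 rose, namely Ndufa13, Ndufs4 and Sdhb, against 311 of 3744 (8.31%). Over 2000 bases 1 of 4 rose, Ndufa11, against 290 of 7836 (3.70%). The median log2 fold changes lay closer together than the shares called. They were 0.53 for subunits and 0.32 for all genes under 600 bases, 0.40 and 0.31 from 600 to 1000 bases, 0.19 and 0.14 from 1000 to 2000 bases, and -0.07 and -0.08 over 2000 bases. A share called depends on read depth as well as on the size of a difference, and the classes were not matched for depth.

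**Figure D4:**
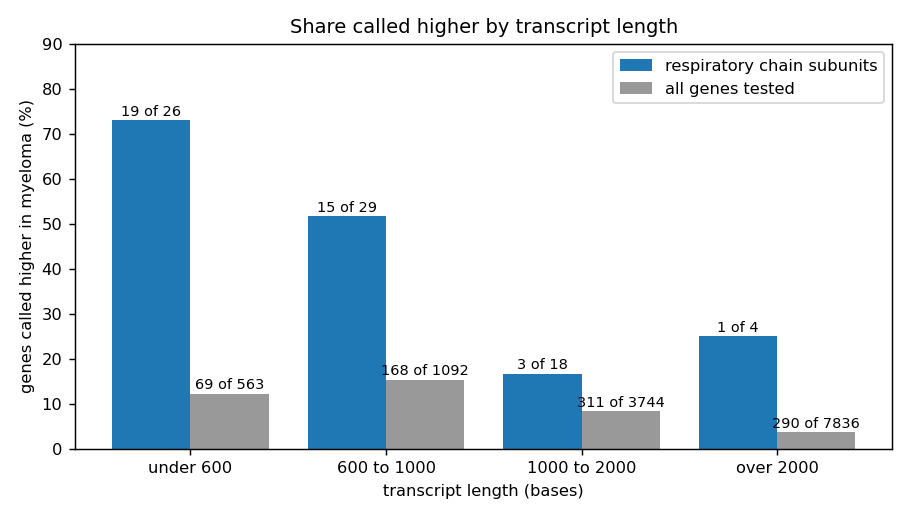
Percentage of genes called higher in myeloma (edgeR, adjusted p under 0.05) in 4 classes of transcript length, for the respiratory chain subunits in blue and for all genes tested in grey, with the counts above the bars. The subunit bars go down over the first 3 classes, with 19 of 26 in the shortest and 3 of 18 between 1000 and 2000 bases, and the last class holds 4 subunits, of which Ndufa11 was called.

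Between complexes, the order of the medians was the same after the curve was subtracted, at 0.19 for complex IV, 0.12 for complex I, 0.07 for complex III, 0.04 for complex V and -0.05 for complex II. Complex II has no transcript under 1000 bases. Within complex I the medians after subtraction were 0.20 for the membrane arm, 0.08 for the Q module and 0.04 for the N module. They were 0.0072 for the 6 core genes named above and 0.18 for the other 30. Differences in log2 fold change between these groups of genes were not tested.

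Fitted with each library's own length curve as an offset, edgeR called 2 of the 77 subunits higher, with 3.24% of all genes tested called higher and 2.0% lower. They were Cox5a (log2 fold change 0.71, SE 0.14, adjusted p = 0.0207) and Ndufa11 (0.65, SE 0.11, adjusted p = 0.0101). The deposited length of Ndufa11 is 2661 bases for its single transcript, which GENCODE M21 lists at 545 bases. With GENCODE M21 lengths for genes with 1 listed transcript, an alternative chosen after this was seen, Ndufa11 stood at 0.35 (adjusted p = 0.0896) and Cox5a was the only subunit called (0.71, adjusted p = 0.0217). Of 22 subunits that could be checked in this way, only Ndufa11 had a length off by more than 1.5 times. Subunits just outside the threshold with the offset were Ndufb8 (0.36, adjusted p = 0.0564), Cox5b (0.48, adjusted p = 0.0573), Ndufa13 (0.41, adjusted p = 0.0657), Uqcrq (0.45, adjusted p = 0.0675) and Atp5l (0.37, adjusted p = 0.0736).

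The 3 myeloma libraries were not alike. The median deviation of the subunits from their 6-library mean (log2 CPM) was 0.28, 0.26 and 0.07 in MM3, MM4 and MM5, against -0.21, -0.13 and -0.24 in CT1, CT3 and CT5. MM5 was the lowest of the myeloma libraries for 56 of the 77 subunits. Once each library's length curve was subtracted, the medians were 0.16, 0.09 and -0.05 in myeloma, against -0.08, -0.05 and -0.04 in control. After that step MM5 lay within the range of the controls, and MM3 and MM4 lay above it. Left out one at a time, the libraries changed the number of called subunits to 13 without MM3, 12 without MM4, 44 without MM5, 22 without CT1, 14 without CT3 and 17 without CT5. Calls over all genes moved too, from 836 higher without MM5 down to 331 without CT3. The shares of all genes called higher were 3.30% without MM3, 2.89% without MM4 and 6.15% without MM5. They were 4.71% without CT1, 2.42% without CT3 and 3.24% without CT5. In all 6 such fits 11 of the 38 were called, which were Ndufb8, Ndufa11, Ndufa13, Ndufc2, Ndufa4, Cox5a, Cox5b, Cox6b1, Cox8a, Atp5j2 and Atp5e. How many of all genes kept a call in all 6 fits was not counted, so the subunits' stability has no base to be read against.

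**Figure D5:**
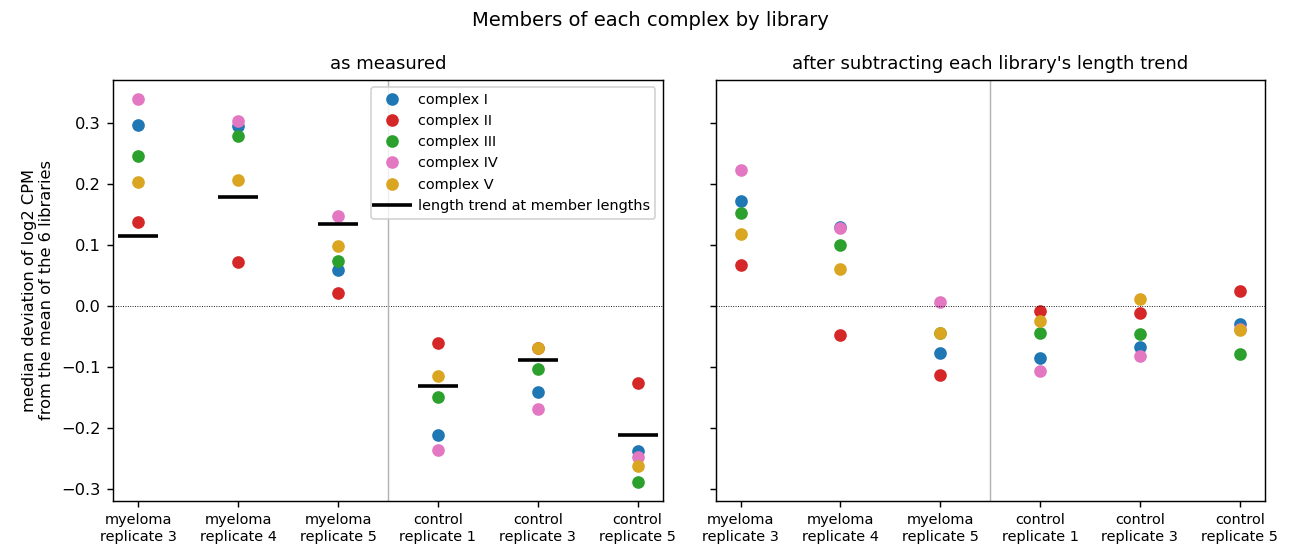
Median deviation of log2 CPM from the mean of the 6 libraries for the tested subunits of each complex, with myeloma libraries left and control libraries right of the vertical line, as measured (left panel, with black bars for the length curve at the subunits' lengths) and after subtracting each library's length curve (right panel). On the left, over all subunits, the medians are 0.28, 0.26 and 0.07 in myeloma and -0.21, -0.13 and -0.24 in control. On the right the median over all subunits is -0.05 in MM5, against -0.08 to -0.04 in control, while complex IV lies above the control range in that library, and complexes II and V lie below it.

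Per unit length, complexes I and V gave the largest summed levels. In the authors' TPM (transcript levels scaled for length and library total), which are scaled to the whole library and not to the factors used for testing, the complex I subunits summed to 4681 ± 515 in myeloma and 4010 ± 41.8 in control (SD, n = 3 each). Complex IV summed to 3649 ± 398 TPM in myeloma and 3058 ± 117 TPM in control, and complex V to 4519 ± 353 TPM in myeloma and 4106 ± 158 TPM in control. Complex III summed to 1536 ± 208 TPM in myeloma and 1363 ± 51.1 TPM in control, and complex II, the smallest sum, to 381 ± 21.1 TPM in myeloma and 417 ± 18.7 TPM in control. The ratio of the complex IV to the complex V sum was 0.826, 0.817 and 0.776 in MM3, MM4 and MM5, against 0.742, 0.747 and 0.745 in CT1, CT3 and CT5, with no overlap. That of complex I to complex V was 1.04, 1.07 and 0.994 in myeloma and 0.996, 0.998 and 0.939 in control, with overlap. By an exact permutation test over the libraries, two-sided, p was 0.1 for the ratio of complex IV to V and 0.3 for that of complex I to V. The smallest p that 3 libraries against 3 can give is 0.1. These ratios were not planned, and complexes IV and I had the largest median fold changes in these same data. The p-values therefore give no independent support for a difference between complexes.

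Transcripts that work with the nuclear subunits were compared by the same fit. Of the 13 subunits encoded by mitochondrial DNA 3 were called higher, mt-Nd3 (log2 fold change 1.77, SE 0.32, adjusted p = 0.0116), mt-Co3 (0.97, SE 0.23, adjusted p = 0.0296) and mt-Co2 (1.12, SE 0.29, adjusted p = 0.0409), and none lower. With the length offset mt-Nd3 kept its call (adjusted p = 0.0257), while mt-Co3 (0.116) and mt-Co2 (0.136) lost theirs. Their summed level was 27785, 32973 and 85116 CPM in myeloma, against 23125, 23933 and 20376 CPM in control. MM5, the lowest of the myeloma libraries for most nuclear subunits, was thus by far the highest for the mitochondrial ones. Cycs, cytochrome c itself, rose (0.68, SE 0.15, adjusted p = 0.0221, and 0.0464 with the length offset), and Cyc1, the cytochrome c1 of complex III that the name rule misses, did not pass (0.31, SE 0.09, adjusted p = 0.0651). Of 47 assembly factors tested 8 rose and none fell (median 0.32), among them Uqcc2 for complex III (0.95, SE 0.17), Coa3 for complex IV (0.67, SE 0.13) and Surf1 for complex IV (0.47, SE 0.10), where 6.33% of all genes rose. With the length offset 0 of the 47 were called, at adjusted p-values of 0.0550 for Uqcc2, 0.132 for Coa3 and 0.323 for Surf1. Of 14 citric acid cycle enzymes edgeR called 0, with a median of 0.00 (3 at an unadjusted p under 0.05, and 0 by DESeq2 or limma-voom). Of 6 carriers and channels of the mitochondrial membranes, such as the ADP/ATP carrier gene Slc25a5, edgeR also called 0, with a median of 0.20 (3 at an unadjusted p under 0.05, and 0 by DESeq2 or limma-voom). Of 13 regulators of mitochondrial biogenesis 1 was called, Tfb2m, a mitochondrial transcription factor that fell (-0.44, SE 0.12, adjusted p = 0.0427, and 0.0550 with the length offset). The median over the list was -0.04. Over all genes tested 6.33% were called higher and 4.69% lower, so 1 call in a list of this size is near that share.

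The sorted cells carried the markers of their label, and traces of other cells differed between the groups. Foxp3 stood at 1020 ± 42.0 CPM in myeloma and 1134 ± 130 CPM in control (SD, n = 3 each), and edgeR called 0 of 6 regulatory T cell markers (1 at an unadjusted p under 0.05, Il2ra, and 0 by DESeq2 or limma-voom). The 8 plasma cell markers summed to 291, 397 and 555 CPM in MM3, MM4 and MM5, against 225, 209 and 154 CPM in CT1, CT3 and CT5 (2 of 7 tested higher). Most of the control sum was Prdm1, Xbp1 and Irf4, with control means of 69.0, 63.8 and 48.3 CPM, and none of these was called. Their cell of origin was not tested, so the sum cannot be read as plasma cell RNA alone. The 2 called were Jchain (mean 118 CPM in myeloma and 2.66 CPM in control, log2 fold change 5.44) and Sdc1 (log2 fold change 3.40). Macrophage and monocyte markers summed to 54.7, 140 and 447 CPM in myeloma and 103, 39.2 and 74.4 CPM in control (1 of 7 tested higher, C1qa). Red cell markers summed to 3861, 4794 and 4216 CPM in myeloma and 6744, 14773 and 10396 CPM in control (5 of 7 lower), and B cell markers to 30.3, 43.7 and 73.9 CPM in myeloma and 48.9, 237 and 302 CPM in control (5 of 8 lower). Neutrophil markers summed to 133, 457 and 406 CPM in myeloma and 178, 62.4 and 157 CPM in control, and those of CD8 T cells to 13.5, 18.3 and 22.4 CPM in myeloma and at most 13.8 CPM in a control library. Those of NK cells stayed under 4 CPM in every library. The part of these traces in the subunit differences was not tested. With immunoglobulin, haemoglobin and mitochondrial genes removed before scaling, 37 subunits were called higher, where 6.14% of all genes were. That step leaves any subunit reads from other cells in the counts, so it does not measure the part of these traces.

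Of the 85 subunits 28 had counts that were not whole in at least 1 library, which means that reads were divided with another gene. Ndufb8, Ndufa13, Ndufs3, Ndufs1, Cox5a, Cox5b, Cox4i1, Cox7a2l, Atp5l, Atp5g1 and Atp5g2 are among them, and their levels are uncertain to that extent. Ndufb4 shares reads with the copy Ndufb4c, which was assigned 144.81 to 224.47 counts per library. Among ATP synthase subunits that the name rule misses, Atp5mpl (0.43, SE 0.13, adjusted p = 0.0705) and Usmg5 (0.43, SE 0.17, adjusted p = 0.141) were not called.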

How the data were processed

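Total RNA of sorted CD4+ FOXP3-GFP+ marrow cells was made into libraries with a kit that keeps no strand information, so a gene and an antisense partner share reads. Picard, STAR, RSEM, DESeq2 and the build mm10 are named in the submitters' processing notes. For versions and settings, the entry is "not given in the sources used here". The 6 deposited tables each hold, per the file headers, the authors' RSEM expected counts (estimated, not normalized, not always whole), TPM, FPKM and transcript lengths. The FPKM values that the authors deposited were not used, and their TPM served only for levels per length.

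Symbols in the tables are in capitals, so the name rule was applied ignoring case. A reference name was found for 47224 of 47643 gene IDs, and the other 419 kept the tables' own. Positions are GENCODE M21 on GRCm38, counted from 1. Rounded expected counts were filtered with filterByExpr (minimum count 10, minimum total 15), and TMM factors and the quasi-likelihood test of edgeR 4.0.16 under R 4.3.3 were applied, with myeloma over control as the fold change. Benjamini-Hochberg adjustment ran over 13235 genes, with 0.05 as the threshold. An adjusted p with no method named is from this edgeR test. The SE is the log2 fold change divided by the square root of F. CPM values were scaled by the TMM factors. The biological coefficient of variation was 0.202. Depth, as total expected counts, was 12008165 in MM3, 10240620 in MM4, 11777901 in MM5, 12315318 in CT1, 11688282 in CT3 and 13314631 in CT5. The floor of 3 counts, on the same scaled library sizes, covers counting error only.

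The length curve is a natural spline with 4 degrees of freedom on log2 length, fitted over all genes tested (per library on log2 CPM with a prior count of 2 where it served as an offset). Per the series design each group had 3 mice. Labels tie no number to a mouse or a day, so a p-value measures the spread between libraries, which may in part be technical. Alternatives were RLE factors, no scaling factors, no low-count filter, a filter of 1 CPM in 3 libraries, DESeq2 1.42.0, limma-voom (limma 3.58.1), the length offset, a replicate block, taking out immunoglobulin, haemoglobin and mitochondrial genes before scaling, and leaving out each library.

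The subunits, lists and settings were chosen with earlier results of these data known. Subunits named with values are, per complex, the 4 called with the smallest p and the 2 with the highest mean TPM. Both extremes of fold change in each complex, fixed isoform sets and catalytic, redox or complex I core subunits were also named. From each companion list at most 3 called genes were named. Others, such as Sdhc, were named after their values were seen. 1 subunit is not reported here.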

Additional observations from a re-analysis of the deposited data

How the results depend on the processing

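Of the 40 tested subunits named by the rule, every one kept its side of the threshold and its direction with RLE factors, DESeq2, the CPM filter, and without immunoglobulin, haemoglobin and mitochondrial genes. The number of subunits called higher was 38, against 36 with RLE factors, 37 with the CPM filter, 41 with DESeq2, 43 with no filter, 31 with limma-voom and 25 with library sizes alone, and it ran from 12 to 44 when 1 library was left out, fits that have fewer samples. It was 2 with the length offset (2.60% of the subunits, against 3.24% of all genes called higher). With GENCODE M21 lengths (chosen after seeing the data) it was 1 (1.30%, against 3.29%). The replicate block gave 3, Cox5a, Ndufa13 and Cox5b (3.90%, against 2.74%). With the replicate block and the length offset it was 2 (2.60%, against 4.77%). Numbers called lower were 0 throughout. Of all genes 2.42% to 6.15% were called higher when 1 library was left out. Same-numbered libraries deviated together only weakly (correlation over genes 0.03 for number 3 and 0.10 for number 5). Differently numbered libraries were not compared in this way, so these values cannot show whether the numbers mark a shared day or batch. The block contrast rests on those 2 numbers.

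Median log2 fold changes moved by more than the spread between libraries mainly with the length offset. With it they were 0.12 over all subunits, 0.16 for complex I, -0.023 for complex II, 0.089 for complex III, 0.23 for complex IV and 0.079 for complex V, and 0.075, 0.10 and 0.24 for the N module, Q module and membrane arm. With GENCODE M21 lengths they were, in the same order, 0.13, 0.16, -0.024, 0.088, 0.23 and 0.084, and 0.079, 0.10 and 0.25. With the replicate block and the length offset they were 0.12, 0.14, 0.0029, 0.053, 0.14 and 0.0099, and 0.012, 0.077 and 0.17. Complex IV was at 0.43 with the replicate block alone. With library sizes alone, which shift the median of all genes to -0.05, complex II was at 0.12 and the Q module at 0.26. Leaving out 1 library gave 0.35 to 0.48 over all subunits, 0.40 to 0.55 for complex I, 0.14 to 0.21 for complex II, 0.26 to 0.48 for complex III, 0.42 to 0.59 for complex IV and 0.24 to 0.37 for complex V. The cause of these changes was not tested.

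In these fits signs turned only for subunits that were not called. Over all 77 tested they turned for 16 with the length offset, 15 with GENCODE M21 lengths, 20 with the replicate block and the length offset, and at most 2 in any other fit. The values that follow are those of the subunits named by the rule. With the length offset log2 fold changes were -0.023 for Ndufs7, -0.13 for Ndufv1, -0.11 for Uqcrc1, -0.041 for Cox7a2, -0.16 for Atp5g2 and -0.11 for Atp5b. With GENCODE M21 lengths those of Ndufs7 and Cox7a2 were -0.019 and -0.044, and the other 4 were the same to 2 decimals. With the replicate block they were -0.014 for Ndufv1 and 0.17 for Atp5s. With both the block and the offset they were -0.23 for Ndufv1, -0.0014 for Uqcrh, -0.047 for Uqcrc1, -0.091 for Cox7a2, -0.064 for Atp5g2 and -0.11 for Atp5b. Uqcrc1 stood at -0.021 with library sizes alone. With 1 library left out Cox7a2l ran from -0.15 to 0.023 (the highest without MM5) and Atp5s from -0.40 to 0.13 (above 0 without MM4, and at 0.050 without CT3). At totals of 10240620 to 13314631 counts, genes as thinly covered as Atp5s allow no statement on differences of the size seen in the other subunits.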
